A study of Mus musculus with 23 samples.

Results

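Expression of 9 genes of the neural crest and of glial cells was followed in B16F10 mouse melanoma after CRISPR editing of Nr2f6. The genes were Ngfr, Mbp, Pmp22, Erbb3, S100b, Sox9, Nes, L1cam and Scrg1, 9 of the 47643 genes in the expression table. They were chosen by name, with their levels under each guide in the same libraries already in view. Differences between guide and control are therefore given for these 9 genes as a description, without p-values. Tests are reported between sample types, between the antibody-treated groups, and for 97 other genes of the same pathways. Those other genes were also listed with earlier results of these data known, and sample types were compared in the same libraries. The p-values do not account for that choice.

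B16F10 is a pigmented melanoma line of C57BL/6 origin, and Nr2f6 encodes an orphan nuclear receptor. RNA was sequenced from bulk tumors, from tumor cells sorted out of tumors with magnetic beads, and from cultured cells. Each sample type had 2 libraries of control cells (labelled WT) and 2 of each guide, sg492 and sg495 (both labelled NR2F6 KO), 18 libraries in all. A further 2 libraries were labelled IgG control and 3 anti-PD1, all of WT genotype, with no tissue named in their labels. Edited cells were sorted for uptake of a fluorescent guide RNA given with Cas9 protein, and whether they were kept as a pool or as clones is not given in the sources used here. Tumors grew under the skin of male C57BL/6 mice aged 6 to 8 weeks with an intact immune system. Sorted cells had been through collagenase D digestion and depletion of stromal cells, steps that the bulk tumors and the cultured cells did not share. Nothing in the labels says whether the 2 libraries of a group came from separate mice or cultures, so the spread between them may be technical.

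Melanocytes and Schwann cells both descend from the neural crest, a migratory cell population of the embryo, and both need the transcription factor Sox10. Melanoma cells can lower their pigment program and take up neural crest-like features, and Ngfr (the low-affinity neurotrophin receptor, CD271) is the gene best known for that state. Mbp and Pmp22 encode proteins of myelin, the sheath that glia wrap around axons. Erbb3 is the receptor through which neuregulins act on Schwann cell precursors and melanocytes, S100b is a calcium-binding protein used to stain both glia and melanoma, Sox9 is a neural crest and cartilage transcription factor, nestin (Nes) is an intermediate filament of progenitor cells, L1cam is a neural adhesion molecule, and Scrg1 is a small secreted protein first described in scrapie-infected brain.

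Sequence upstream of the start was taken from the RefSeq promoter table (GRCm38.p6), which held 9 windows for 5 of the 9 genes (Ngfr, Pmp22, S100b, Nes and L1cam). The stretches below belong to a receptor and a myelin gene whose levels stood above control with sg495 in at least 1 sample type, and to S100b, a gene at high level in every tumor library. They are written 5′ to 3′ along the gene, end at the base before the start or before the nearest annotated exon, and carry GC boxes (GGGCGG or CCGCCC, either strand) in capitals. The Ngfr stretch is chr11:95587736-95587948 on the minus strand, 213 bases. The Pmp22 stretches are chr11:63128732-63128981 and chr11:63131207-63131456 on the plus strand, before separate starts of the gene, and S100b is chr10:76253586-76253835 on the plus strand.
Ngfr: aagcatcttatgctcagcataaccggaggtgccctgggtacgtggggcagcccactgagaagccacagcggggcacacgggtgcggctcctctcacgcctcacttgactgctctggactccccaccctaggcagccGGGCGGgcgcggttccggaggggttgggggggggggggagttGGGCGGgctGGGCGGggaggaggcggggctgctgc
Pmp22, upstream start: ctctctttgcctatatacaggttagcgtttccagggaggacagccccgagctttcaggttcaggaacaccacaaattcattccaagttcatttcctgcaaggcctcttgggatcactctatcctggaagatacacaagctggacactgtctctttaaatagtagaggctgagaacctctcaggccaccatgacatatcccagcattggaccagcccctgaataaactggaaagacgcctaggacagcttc
Pmp22, downstream start: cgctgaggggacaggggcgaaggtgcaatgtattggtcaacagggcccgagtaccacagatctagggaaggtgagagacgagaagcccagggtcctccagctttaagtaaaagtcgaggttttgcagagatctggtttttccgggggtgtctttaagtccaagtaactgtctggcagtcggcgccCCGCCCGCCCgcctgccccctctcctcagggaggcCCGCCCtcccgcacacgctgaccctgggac
S100b: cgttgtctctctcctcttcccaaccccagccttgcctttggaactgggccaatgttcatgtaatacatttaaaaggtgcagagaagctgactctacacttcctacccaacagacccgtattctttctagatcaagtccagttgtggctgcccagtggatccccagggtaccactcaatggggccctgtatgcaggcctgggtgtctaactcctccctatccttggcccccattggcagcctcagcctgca

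The Ngfr stretch held 3 GC boxes and was 70.9% G and C, and the downstream Pmp22 stretch held 3 boxes, of which 2 overlap, at 61.2%. The upstream Pmp22 stretch (48.8%) and S100b (53.6%) held none. Of the Pmp22 windows not shown, chr11:63132319-63132568 held no GC box (64.8% G and C) and chr11:63132553-63132802 held 3 (73.6%). Over the 250 bases before the start, a GC box was present in 32.7418% of 32851 RefSeq windows, and the median window was 52.4% G and C. The nuclear receptor half-site AGGTCA (or TGACCT) was found in none of the 9 windows of these genes and in 14.0239% of all windows, and the SOX letters ACAAAG (or CTTTGT) also in none, against 16.4622% of all windows. These searches say only which letters stand in the windows.

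Values are TPM, a level scaled for transcript length and for the library's total. Nr2f6 was at 25.83 and 25.24 TPM in control bulk tumors and at 17.22 and 15.76 with sg495, and the sg495 libraries were also the lower ones in sorted cells (10.60 and 12.18 against 20.32 and 17.73) and in culture (18.55 and 22.43 against 31.88 and 32.90). The sorted libraries labelled sg492 held 19.84 and 25.70 TPM of Nr2f6, not below control, so they are named below by their label. In bulk tumors and culture sg492 libraries held 22.31 and 23.31, and 26.55 and 31.50 TPM. The study checked the knockout by immunoblotting and by sequencing the targeted regions. Why Nr2f6 was not lower in the sorted libraries labelled sg492 was not tested. Pigment cell markers were high everywhere (their sum was 15285.96 to 18034.38 TPM in sorted cells). Leukocyte markers summed to 2.72 to 4.45 TPM in sorted cells and 1.38 to 3.31 in culture, against 260.93 to 337.30 in control bulk tumors and 506.94 to 564.88 in sg495 bulk tumors. Fibroblast markers likewise summed to 372.11 to 465.36 TPM in control bulk tumors and 620.73 to 1046.60 with sg495. Bulk values of the genes below were thus measured in libraries whose other cell types moved with the guide. In bulk RNA, fewer cells of a type and less RNA per cell cannot be told apart.

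**Figure D1:**
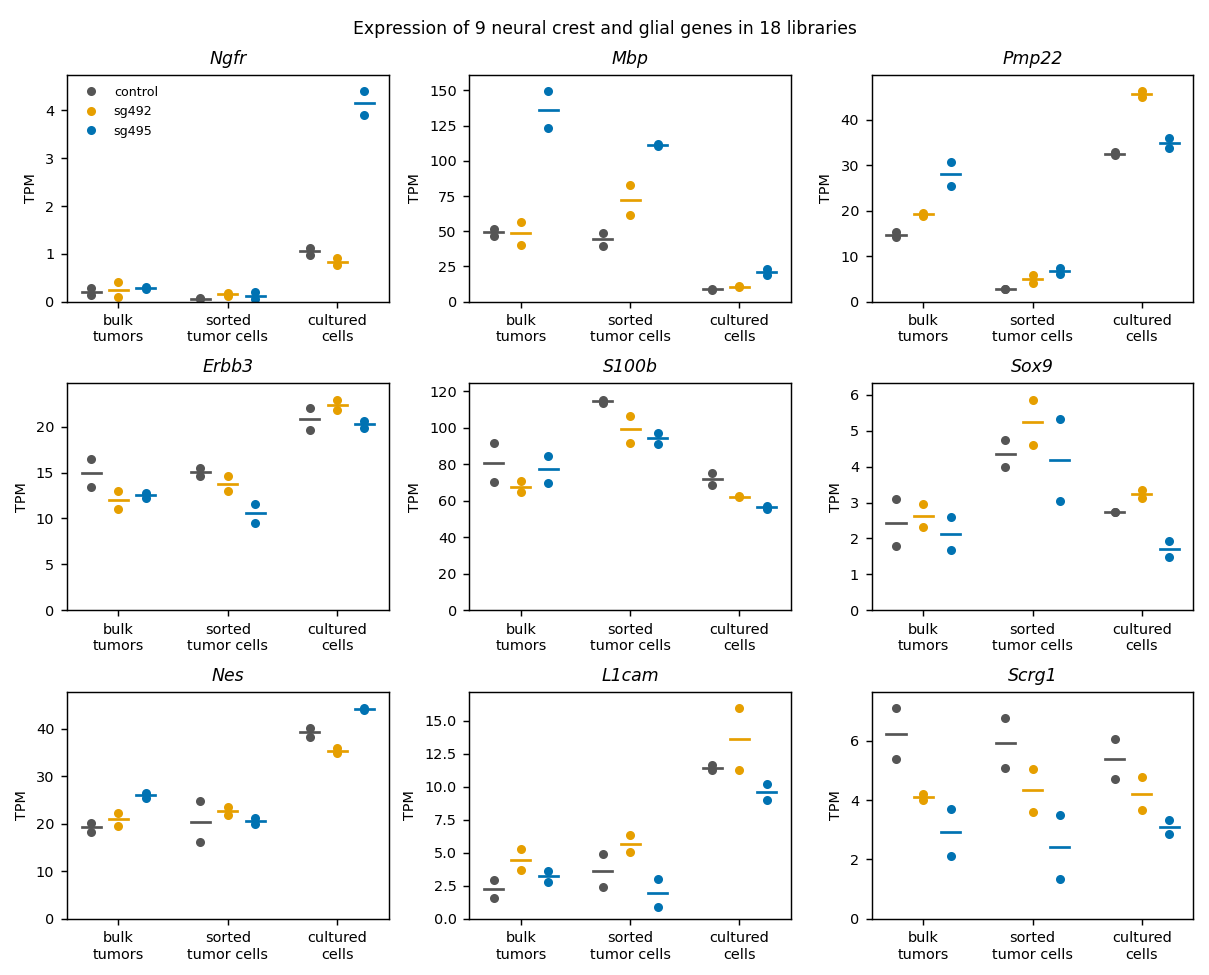
Levels of the 9 genes in 18 libraries. Each panel shows 1 gene, points are single libraries in TPM on axes that start at 0, short lines are means of 2 libraries, and colors give control, sg492 and sg495. Mbp with sg495 lies above control in all 3 sample types, Ngfr reaches 3.90 and 4.40 TPM in cultured sg495 cells and at most 1.12 elsewhere, and Pmp22 is lowest in sorted cells.

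Ngfr (ENSMUSG00000000120, chr11:95568818-95587735, minus strand, mm10) was a low-level transcript that stood out in 1 group. Cultured control cells held 0.98 and 1.12 TPM, cultured sg492 cells 0.76 and 0.91, and cultured sg495 cells 4.40 and 3.90. The cultured sg495 mean was 3.95 times that of control, a fitted difference of 1.33 ± 0.164 (SE) in log2(TPM + 1). In tumors the receptor was close to the detection limit with every guide. Bulk tumors ranged from 0.09 TPM (sg492) to 0.40 (sg492) and sorted cells from 0.05 (sg495) to 0.20 (sg495). No sg495 tumor library of either kind came near the level of its cultured counterpart, and the groups overlapped in bulk tumors and, for sg495, in sorted cells.

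Erbb3 (ENSMUSG00000018166, chr10:128567523-128589652, minus strand) was expressed in every one of the 18 libraries (9.55 to 22.94 TPM). Control and sg495 libraries held 15.50 and 14.63 against 9.55 and 11.60 TPM in sorted cells, a fitted difference of -0.48 ± 0.135. In bulk tumors the same pairs were 16.50 and 13.43 against 12.29 and 12.83 TPM, and in culture 22.03 and 19.66 against 19.91 and 20.61. Both sg495 libraries were therefore below both controls in the 2 tumor sample types and mixed with them in culture. The libraries labelled sg492 followed the same order (11.05 and 13.01 TPM in bulk, 12.95 and 14.59 sorted, 21.87 and 22.94 cultured).

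Mbp (ENSMUSG00000041607, chr18:82475146-82585637, plus strand) was above control with sg495 in every sample type. Its gene-level value pools the myelin protein transcripts with the longer Golli transcripts, which other cell types also use. In bulk tumors control libraries held 51.76 and 46.66 TPM, sg492 56.50 and 40.38, and sg495 123.22 and 149.39. Sorted cells held 48.58 and 39.80 TPM in control, 61.63 and 82.68 in the libraries labelled sg492, and 112.26 and 110.54 with sg495. Cultured cells started from a lower level, 8.56 and 9.17 TPM in control, 10.78 and 10.36 with sg492 and 18.87 and 23.34 with sg495. The ratio of the sg495 mean to the control mean was 2.77 in bulk tumors, 2.52 in sorted cells and 2.38 in culture. Leukocyte markers summed to 2.72 to 4.45 TPM in sorted cells and 1.38 to 3.31 in culture. Fibroblast markers summed to 2.33 to 5.50 and 7.01 to 11.34 TPM. The part of other cell types in the Mbp differences was not tested. Fitted differences were 1.45 ± 0.172, 1.32 ± 0.159 and 1.16 ± 0.112 in log2(TPM + 1). With sg492 the fitted difference was -0.04 in bulk tumors, 0.69 in sorted cells and 0.23 in culture.

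Pmp22 (ENSMUSG00000018217, chr11:63128982-63159547, plus strand) lay above control with both guides in all 3 sample types, but by unequal amounts. In sorted cells control libraries held 2.73 and 2.84 TPM, those labelled sg492 5.94 and 4.01, and sg495 7.38 and 6.18, so the sg495 mean was 2.43 times control. In bulk tumors the levels were 15.23 and 14.11 TPM in control, 19.60 and 18.93 with sg492 and 25.48 and 30.82 with sg495. Culture reversed the order of the guides. Control cells held 32.92 and 32.22 TPM there, sg492 46.26 and 45.04, and sg495 only 33.77 and 36.00. The fitted sg495 difference was 0.89 ± 0.116 in bulk tumors, 1.04 ± 0.215 in sorted cells and 0.10 ± 0.0557 in culture, against 0.37, 0.64 and 0.47 for sg492. Fibroblasts also express Pmp22, and the fibroblast marker sum given above moved with sg495 in bulk tumors; its part in the bulk difference was not tested.

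S100b (ENSMUSG00000033208, chr10:76253853-76261159, plus strand) was among the more abundant of the 9 transcripts. Sorted cells held 113.48 and 115.23 TPM in control, 91.74 and 106.38 in the libraries labelled sg492, and 91.11 and 97.17 with sg495. Cultured cells held 68.85 and 74.96, 61.95 and 62.39, and 57.27 and 55.47 TPM in the same order. Both guides were thus below control in these 2 sample types, by 0.28 ± 0.0935 and 0.34 ± 0.0554 in log2(TPM + 1) for sg495. Bulk tumors overlapped for both guides (70.16 and 91.58, 70.73 and 64.68, and 84.62 and 69.78 TPM).

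Scrg1 (ENSMUSG00000031610, chr8:57455923-57477585, plus strand) was below control with sg495 in every sample type. Bulk tumors held 5.37 and 7.09 TPM in control, 4.01 and 4.22 with sg492, and 2.12 and 3.70 with sg495. The sorted cells went from 6.77 and 5.07 TPM in control to 1.33 and 3.50 with sg495, and cultured cells from 4.70 and 6.06 to 2.87 and 3.32. Libraries labelled sg492 lay between the control and sg495 libraries in bulk tumors and in sorted cells (3.60 and 5.06), while in culture (3.66 and 4.78) the higher one lay above 1 control. Fitted sg495 differences were -0.91 ± 0.241, -1.08 ± 0.352 and -0.63 ± 0.171 in bulk tumors, sorted cells and culture. Scrg1 shares chromosome 8 with Nr2f6, and the genes of that chromosome had median sg495 differences of -0.25, -0.34 and -0.33, against 0.07, -0.03 and 0.01 for all other chromosomes. With sg492 the chromosome 8 medians were 0.03, 0.02 and 0.03. The part of this regional shift in the Scrg1 difference was not tested.

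Sox9 (ENSMUSG00000000567, chr11:112782224-112787760, plus strand) was a low-level transcript whose guide groups overlapped in tumors. Cultured cells held 2.73 and 2.74 TPM in control, 3.35 and 3.12 with sg492 and 1.49 and 1.92 with sg495, so the guides stood on opposite sides of control there. In sorted cells the range was 3.03 to 5.86 TPM and in bulk tumors 1.68 to 3.09, with no order by guide. The fitted sg495 difference was -0.47 ± 0.149 in culture, -0.08 ± 0.263 in sorted cells and -0.12 ± 0.274 in bulk tumors.

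Nes (ENSMUSG00000004891, chr3:87971078-87980451, plus strand) was above control with sg495 in bulk tumors and in culture, by small amounts. Bulk tumors held 20.27 and 18.27 TPM in control, 19.63 and 22.33 with sg492 and 25.45 and 26.49 with sg495. Cultured cells held 38.34 and 40.15, 34.89 and 35.92, and 44.32 and 43.99 TPM. Sorted cells gave no separation (24.71 and 16.07, 23.52 and 21.85, and 19.94 and 21.23 TPM). Nestin is also made by endothelial cells and pericytes, whose marker sums were 67.88 to 76.49 and 30.35 to 30.44 TPM in control bulk tumors and 82.87 to 85.70 and 42.08 to 44.27 with sg495; their part in the bulk difference was not tested.

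L1cam (ENSMUSG00000031391, chrX:73853778-73896105, minus strand) varied widely between libraries of 1 group. Sorted sg495 libraries held 3.02 and 0.85 TPM, beside 2.38 and 4.90 in control and 6.34 and 5.02 in the libraries labelled sg492. Bulk tumors held 2.95 and 1.55 TPM in control, 5.28 and 3.68 with sg492 and 2.80 and 3.64 with sg495. Cultured cells held 11.26 and 11.62, 15.92 and 11.26, and 8.96 and 10.18 TPM. The sg492 mean was above control and the sg495 mean below it in sorted cells and in culture, and the sg495 groups overlapped control in both tumor sample types.

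**Figure D2:**
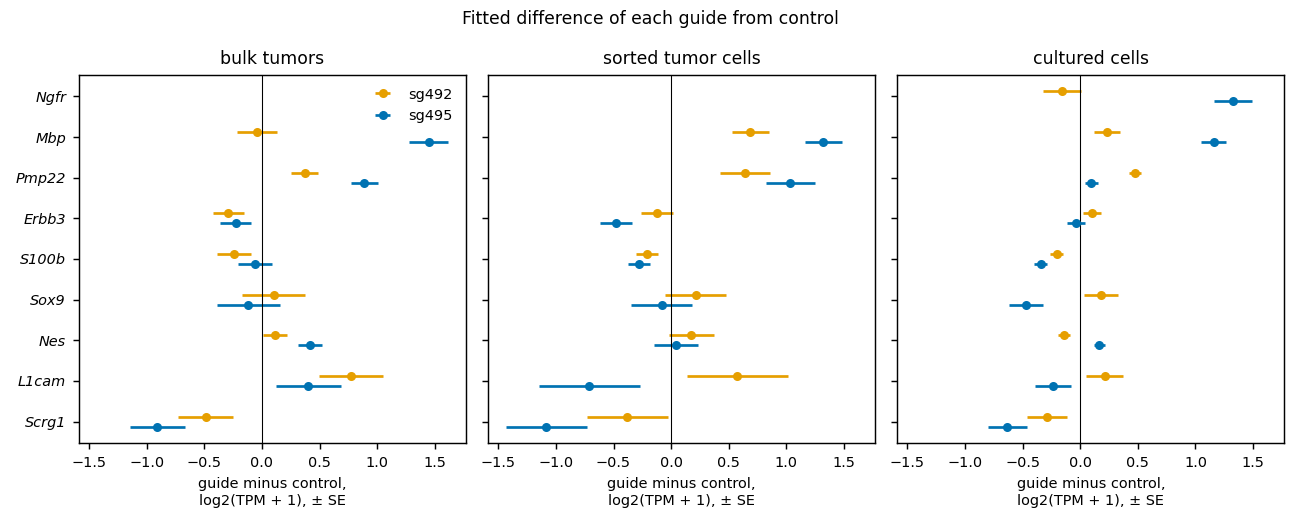
Fitted difference of each guide from control in log2(TPM + 1), 1 panel per sample type, with standard errors as bars and 0 as a vertical line. Mbp with sg495 lies between 1.16 and 1.45 in all 3 panels, and Scrg1 with sg495 between -1.08 and -0.63. Pmp22 with sg495 lies at 0.89 in bulk tumors, 1.04 in sorted cells and 0.10 in culture, and with sg492 at 0.37, 0.64 and 0.47. L1cam in the same order lies at 0.40, -0.71 and -0.24 with sg495 and at 0.77, 0.57 and 0.21 with sg492. Erbb3, S100b, Sox9 and Nes lie between -0.48 and 0.41. Ngfr is drawn only for cultured cells, where it passed the filter of a mean of 1 TPM.

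A gene is called at an adjusted p below 0.05 in limma with a change of at least 1.5-fold. Calls by guide are not given for the 9 genes, which were chosen with those values in view. Over all genes tested, 0.0293%, 0.899% and 2.77% were called with sg495 in bulk tumors, sorted cells and culture. With sg492 the shares were 0%, 0.0388% and 0.05%. The filter of 1 TPM on average left 8 of the 9 genes in both tumor sample types and all 9 in culture. Ngfr passed it there with sg495 libraries at 4.40 and 3.90 TPM and the others at 0.76 to 1.12. Both sg495 libraries lay outside both controls for 5 of 8 genes in bulk tumors, 5 of 8 in sorted cells and 8 of 9 in culture, against 45.9%, 49.4% and 56.4% of all genes. For sg492 the counts were 4 of 8, 6 of 8 and 6 of 9, against 42.5%, 40.3% and 41.5%. Since the genes were chosen with these values known, nothing is read from the counts. Both guides were compared with the same control libraries, and their columns are not independent. The median fitted sg495 difference over the genes tested was 0.17 in bulk tumors, -0.18 in sorted cells and -0.04 in culture, beside 0.06, -0.04 and -0.0010 over all genes.

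Most of these genes differed between tumor cells taken from mice and the same line in culture. Across the 18 libraries, 7 of the 8 genes tested were called between sorted tumor cells and cultured cells, 3 higher and 4 lower in sorted cells, where 14.6% of all 13152 genes were called higher and 8.99% lower. Mbp rose 5.62-fold in mean TPM and Pmp22 fell, to 0.129 of its cultured mean, so the 2 myelin genes went opposite ways. Sorted cells differ from cultured cells in growth in mice and also in digestion and bead sorting. Bulk tumors, which also grew in mice but were neither digested nor depleted, had mean levels over culture of 5.77 for Mbp, 0.623 for Erbb3, 0.557 for Nes and 0.288 for L1cam, beside 5.62, 0.621, 0.536 and 0.325 for sorted cells. For Pmp22, S100b and Sox9 the bulk values were 0.549, 1.19 and 0.939, and the sorted ones 0.129, 1.61 and 1.80. Bulk libraries also held leukocyte markers (summed to 260.93 to 564.88 TPM) and fibroblast markers (372.11 to 1046.60). The parts of growth in mice, of digestion and sorting, and of other cell types in these ratios were not tested.

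Mbp was between 39.80 and 112.26 TPM in the 6 sorted libraries (median 72.155) and between 8.56 and 23.34 in the 6 cultured ones (median 10.57). The lowest sorted library was above the highest cultured one, and the difference in log2(TPM + 1) was 2.40 ± 0.0993 (limma, adjusted p = 7.77e-10). For Pmp22 the ranges were 2.73 to 7.38 TPM sorted (median 4.975) and 32.22 to 46.26 cultured (median 34.885), a difference of -2.78 ± 0.0790 (adjusted p = 4.16e-11 in limma). Neither gene's sample types overlapped. These 2 differences kept their direction and call under all 26 alternatives tried.

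Both receptors were lower in sorted cells. Erbb3 ranged from 9.55 to 15.50 TPM sorted (median 13.77) and from 19.66 to 22.94 cultured (median 21.24), with no overlap and a difference of -0.66 ± 0.0690 (limma, adjusted p = 2.68e-06). With control libraries only it was -0.44 with an adjusted p of 0.0283 in limma, under the 1.5-fold limit. Ngfr, whose mean over the 18 libraries was under the filter and which was not tested, ranged from 0.05 to 0.20 TPM sorted and from 0.76 to 4.40 cultured, again without overlap. Leaving sg495 aside, its cultured libraries still held 0.76 to 1.12 TPM.

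Nes and L1cam were lower in sorted cells, and S100b and Sox9 higher. Nes ranged from 16.07 to 24.71 TPM sorted (median 21.54) and from 34.89 to 44.32 cultured (median 39.245), a difference of -0.88 ± 0.0819 (limma, adjusted p = 1.03e-06). L1cam ranged from 0.85 to 6.34 TPM (median 3.96) against 8.96 to 15.92 (median 11.26), a difference of -1.52 ± 0.205 (adjusted p = 2.83e-05 in limma). S100b, by contrast, ranged from 91.11 to 115.23 TPM sorted (median 101.775) and from 55.47 to 74.96 cultured (median 62.17), higher by 0.68 ± 0.0685 (limma, adjusted p = 1.92e-06). All 3 genes had non-overlapping sample types. Sox9 ranged from 3.03 to 5.86 TPM sorted (median 4.67) and from 1.49 to 3.35 cultured (median 2.735), overlapping but higher by 0.66 ± 0.140 (limma, adjusted p = 0.00109). Its call rested on few libraries, since the difference was 0.52 with control libraries only (adjusted p = 0.103), 0.57 without both sorted libraries labelled sg492 and 0.55 without the second sorted sg495 library, the last 2 under 1.5-fold. Scrg1 was the exception, at 1.33 to 6.77 TPM sorted and 2.87 to 6.06 cultured (difference -0.07 ± 0.169, limma adjusted p = 0.757).

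Taking the whole tumor in place of sorted cells changed 2 of the 8 genes tested, where 9.26% of all genes were called higher in bulk tumors and 4.31% lower. Pmp22 ranged from 14.11 to 30.82 TPM in bulk tumors (median 19.265), above every sorted library, and was higher by 1.91 ± 0.0790 (limma, adjusted p = 6.04e-10). Sox9 ranged from 1.68 to 3.09 TPM in bulk tumors (median 2.45) and was lower by 0.72 ± 0.140 (limma, adjusted p = 0.00100), a call lost with control libraries only (adjusted p = 0.0722). S100b was lower by 0.45 ± 0.0685 (limma, adjusted p = 0.000160), under the 1.5-fold limit. The other 5 genes differed by -0.05 to 0.09, with adjusted p in limma from 0.608 for Nes to 0.900 for Erbb3. Leukocyte marker sums were 260.93 to 564.88 TPM in bulk tumors and 2.72 to 4.45 in sorted cells, and fibroblast sums 372.11 to 1046.60 and 2.33 to 5.50. The part of those cells in the Pmp22 and Sox9 differences was not tested. Pmp22 was also 32.22 to 46.26 TPM in culture, where fibroblast markers summed to 7.01 to 11.34 TPM.

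**Figure D3:**
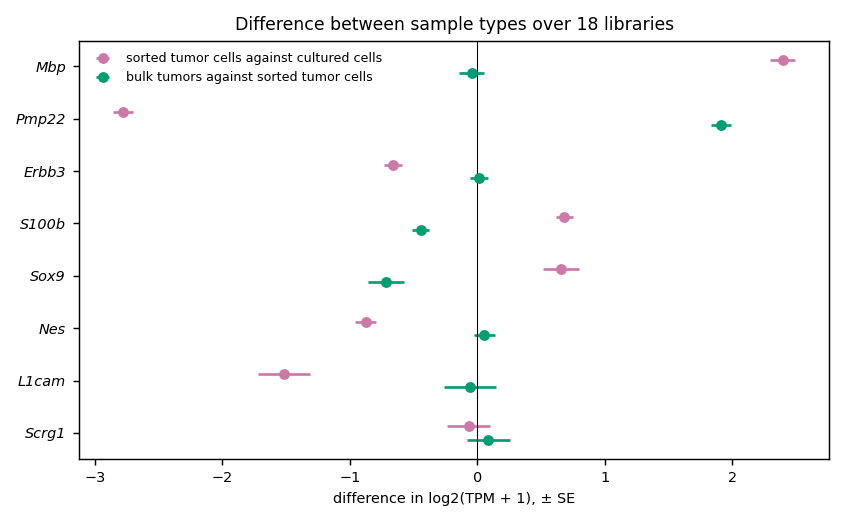
Differences between sample types over 18 libraries for the 8 genes tested, in log2(TPM + 1), with standard errors as bars. Mbp is 2.40 higher and Pmp22 2.78 lower in sorted than in cultured cells, and in bulk tumors against sorted cells Pmp22 is 1.91 higher while Mbp, Erbb3, Nes, L1cam and Scrg1 lie near 0.

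Markers of Schwann cells, the glia of peripheral nerves, were checked as a possible other source of myelin transcripts. Mag, Prx, Gldn and Cdh19 of this marker list are named after their values were seen. Defining genes of myelinating Schwann cells were low in bulk tumors, sorted cells and culture: Mag reached at most 0.42, 0.12 and 0.16 TPM, Prx 0.80, 0.88 and 1.53, and Gldn 0.08, 0.14 and 0.01. Cdh19, an adhesion molecule of Schwann cell precursors, was at 29.11 to 48.91 TPM over the 18 libraries and was also expressed by the cultured line (37.65 to 48.91 TPM). The part of Schwann cells in the bulk tumor values was not tested.

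The 97 other genes were grouped as neural crest transcription factors (18 genes), glial and Schwann cell genes (24), neural crest-like and undifferentiated melanoma genes (16), neurotrophins and their receptors (14), neuregulins and ErbB receptors (12), the L1 family and partners (9) and intermediate filaments that pair with nestin (4). In cultured cells with sg495, 42 of them passed the filter and 8 were called in limma, 5 higher and 3 lower, where 2.77% of all genes were called. At an unadjusted p under 0.05 there were 20 of the 42, and 3337 of 12007 genes in all. Their median difference was -0.03, beside -0.0010 over all genes. By list the calls were 2 of 10 crest factors, 2 of 11 glial genes, 2 of 6 undifferentiated melanoma genes, 1 of 4 ErbB genes, 1 of 4 L1 partners, 0 of 5 neurotrophin genes and 0 of 2 filaments.

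The 3 largest of the 5 rises in culture were those of Pmp2, Id3 and Id1. Pmp2, the lipid-binding P2 protein of peripheral myelin, went from 1.64 and 1.40 TPM to 8.08 and 7.58 (log2 difference 1.81 ± 0.132, limma adjusted p = 0.00189). Id3, an inhibitor of differentiation factors and a BMP target, went from 13.71 and 10.20 TPM to 29.75 and 32.75 (1.33 ± 0.169, limma adjusted p = 0.00786). Id1, its paralog, went from 2.91 and 2.62 TPM to 6.35 and 5.81 (0.91 ± 0.131, limma adjusted p = 0.0115). All 3 were separated from control in both libraries. The other 2 rises, named after their values were seen, were Hbegf, an EGF receptor ligand of the ErbB list (0.71 ± 0.170, limma adjusted p = 0.0476), and Tead4, a TEAD factor of the undifferentiated melanoma list (0.65 ± 0.0735, limma adjusted p = 0.00557). Leaving out 1 library took the adjusted p of Id3 to at most 0.0580 and of Id1 to at most 0.0855, while that of Pmp2 stayed at or under 0.0252 in 12 alternatives.

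The 3 falls in culture were those of Loxl2, Nrp1 and Fabp7. Loxl2, a lysyl oxidase tied to undifferentiated states, went from 13.20 and 11.00 TPM to 3.57 and 2.99 (-1.61 ± 0.124, limma adjusted p = 0.00192). Nrp1, the semaphorin and VEGF co-receptor that partners L1cam, went from 17.11 and 16.89 TPM to 10.58 and 11.14 (-0.60 ± 0.0685, limma adjusted p = 0.00568). Fabp7, the brain lipid-binding protein of radial glia and Schwann cell precursors, went from 19.61 and 19.82 TPM to 11.58 and 13.87 (-0.60 ± 0.104, limma adjusted p = 0.0196). Fabp7 lost its call in 4 of 13 alternatives (adjusted p up to 0.0973) and Nrp1 in 1 (0.0513, without the first cultured sg495 library). So glial genes went both ways, with Pmp2 up and Fabp7 down. With any 1 cultured control or sg495 library left out, the number of the 42 genes called was 3 to 5, lowest without the first sg495 library.

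In sorted tumor cells with sg495, 1 of 42 genes was called, where 0.899% of all genes were (10 of the 42 and 2010 of all 12899 genes at an unadjusted p under 0.05). It was Axl, a receptor tyrosine kinase that marks undifferentiated melanoma, at 1.53 and 2.15 TPM in control, 1.11 and 1.70 in the libraries labelled sg492 and 13.72 and 14.53 with sg495. The difference was 2.42 ± 0.219 (limma, adjusted p = 0.0134). Without the first or the second control library the adjusted p was 0.0793 and 0.0667, and without the first or the second sg495 library 0.132 and 0.121, so the call needs all 4. In culture Axl was 4.66 and 4.30 TPM in control and 4.87 and 3.89 with sg495. In bulk tumors it was 14.54 and 8.80 against 30.04 and 28.78 TPM, in libraries where leukocyte and fibroblast markers also moved with sg495, and it was not called there.

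In bulk tumors with sg495, limma called 0 of 51 genes (10 at an unadjusted p under 0.05, and 2135 of all 13639), and with sg492 it called 0 of 51, 0 of 42 and 0 of 42 in bulk tumors, sorted cells and culture (4, 5 and 10 at an unadjusted p under 0.05). Over all genes 1132 of 13639, 920 of 12899 and 1265 of 12007 had such a p with sg492. Sox10, the lineage factor with the highest level of the crest list, stayed between 223.62 and 297.59 TPM over the 18 libraries. The most abundant glial gene was Cryab, a small heat shock protein (133.08 to 445.75 TPM), the most abundant neurotrophin gene Maged1, an Ngfr-interacting protein (194.14 to 264.61), and the most abundant ErbB gene Errfi1, a feedback inhibitor of EGF receptor family kinases (8.36 to 34.75). Of the L1 family the highest was Nrcam, a neural adhesion molecule (53.82 to 98.34 TPM). Nrg1, a ligand of Erbb3 named here after its values were seen, was scarce, at 0 TPM in every sorted and cultured library and at 0.09 to 0.56 in bulk tumors. Also named after their values were seen, Erbb2, the partner kinase of Erbb3, was at 3.95 to 8.07 TPM throughout, and Sort1, which pairs with Ngfr, at 55.44 to 117.80. A gene listed at 0 TPM may still be expressed below detection, since depth is not given by TPM.

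**Figure D4:**
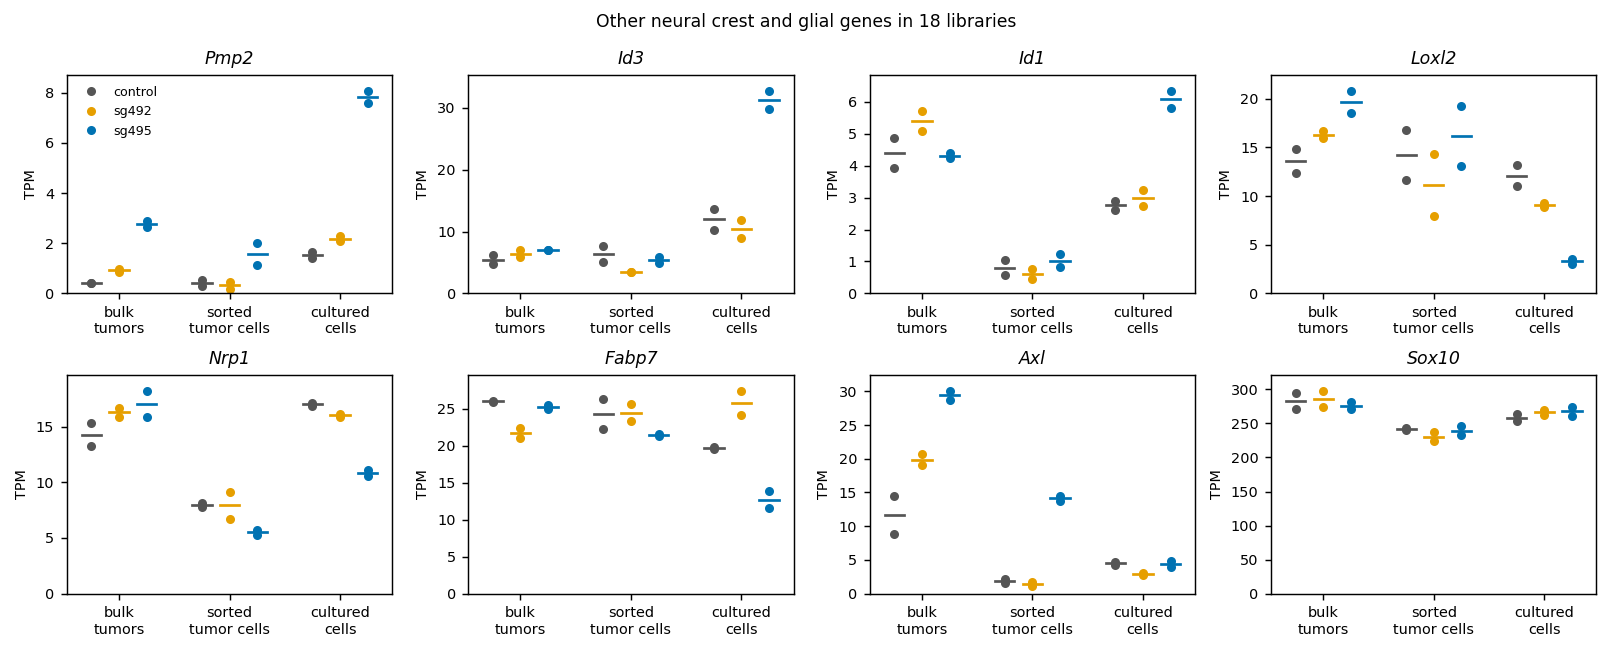
Levels of 8 other neural crest and glial genes in 18 libraries, in TPM on axes that start at 0, with means of 2 libraries as short lines. Pmp2, Id3 and Id1 are high and Loxl2, Nrp1 and Fabp7 low in cultured sg495 cells, Axl is at 13.72 and 14.53 TPM in sorted sg495 cells against 1.53 and 2.15 in control, and Sox10 lies between 223.62 and 297.59 TPM.

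Between sorted and cultured cells, 20 of the 47 list genes tested were called in limma, 9 higher and 11 lower, where 14.6% of all genes were called higher and 8.99% lower. The most raised were Egr2, the master regulator of Schwann cell myelination that is also an immediate early gene (7.02 to 12.54 TPM sorted, 0.00 to 0.23 cultured, difference 3.18 ± 0.113, limma adjusted p = 2.10e-10), and Jun, the AP-1 factor of injured Schwann cells and an early response gene (102.53 to 237.70 against 16.89 to 18.31 TPM, 2.99 ± 0.161, limma adjusted p = 7.68e-09). Snai2, a neural crest specifier, rose from 3.06 to 3.88 TPM in culture to 13.18 to 17.50 sorted (1.90 ± 0.0784, limma adjusted p = 7.74e-10). The genes that fell most were Id3 (-1.497), Id1 (-1.40) and Pmp2 (-1.31), with limma adjusted p of 1.20e-07, 1.08e-07 and 3.40e-07. The cultured mean behind these values includes the sg495 libraries. With control libraries only, Id3 was -0.82 and Id1 -1.07, both still called, and Pmp2 was under the filter. In bulk tumors, which were not digested, Egr2 was at 1.16 to 2.62 TPM, Jun at 14.79 to 20.04 and Snai2 at 2.89 to 3.79, all below every sorted library; the part of digestion was not tested.

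Bulk tumors differed from sorted cells in 15 of 47 genes, 10 higher and 5 lower, where 9.26% of all genes were called higher and 4.31% lower. Tenascin C (Tnc, a matrix protein) was at 10.80 to 27.69 TPM in bulk tumors and 0.00 to 0.43 in sorted cells (4.18 ± 0.148, limma adjusted p = 1.46e-10), the lipid receptor Cd36 at 13.85 to 24.27 and 0.03 to 0.40 (4.11 ± 0.0805, limma adjusted p = 8.62e-13) and the water channel Aqp1 at 8.28 to 18.68 and 0.12 to 0.35 (3.32 ± 0.101, limma adjusted p = 3.32e-11). All 3 were near 0 in culture too. Fibroblast markers summed to 2.33 to 5.50 TPM in sorted cells and 7.01 to 11.34 in culture. The part of stromal cells in these differences was not tested. The 3 largest falls were Jun (-3.00), Egr2 (-1.88) and Snai2 (-1.88). Of the filaments that pair with nestin, Vim was the most abundant (2175.57 to 3187.75 TPM), Des was higher in bulk tumors (24.97 to 33.02 against 9.85 to 18.74 TPM, 1.10, limma adjusted p = 2.37e-05), Synm was at 0.31 to 2.71 TPM and Ina at 0 in all 18 libraries.

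The 5 antibody libraries were unlike the 18 others. Their leukocyte markers summed to 4329.79 to 6563.86 TPM and their pigment cell markers to 1699.64 to 5193.68. Mbp was at 25.23 and 23.42 TPM with IgG and 37.09, 36.57 and 32.81 with anti-PD1, and Erbb3 at 5.76 and 2.21 against 10.91, 10.27 and 8.36. Scrg1 was listed at 0 in both IgG libraries and at 3.69, 3.12 and 2.62 TPM with anti-PD1. All 8 genes tested had a fitted difference above 0, with a median of 0.71 against -0.04 over all genes. None of the 8 was called (limma, adjusted p from 0.608 to 0.873, with 4 at an unadjusted p under 0.05), and 0% of all 13418 genes were called in either direction (964 at an unadjusted p under 0.05).

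The same libraries differed in pigment cell content. Dct, a pigment enzyme named after its values were seen, was at 601.81 to 1267.73 TPM with IgG and 1167.89 to 1872.80 with anti-PD1. The pigment marker sum ran from 1699.64 to 4006.55 against 3408.03 to 5193.68. After scaling each library to its pigment markers, an alternative added once these values had been seen, the difference was -0.42 for Mbp, -0.77 for Pmp22, -0.04 for Nes and -0.35 for L1cam, the reverse of the unscaled direction. Erbb3, S100b, Sox9 and Scrg1 stayed above 0 in every alternative, this scaling included. Their lowest differences were 0.415, 0.018, 0.10 and 1.76. Pmp22 stood apart, at 41.98 and 72.09 TPM with IgG and 83.74, 81.84 and 36.59 with anti-PD1, above its level in most of the 18 other libraries. Whether the antibody changed any of the 9 genes per tumor cell cannot be told apart from the mixture of cells in these libraries.

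**Figure D5:**
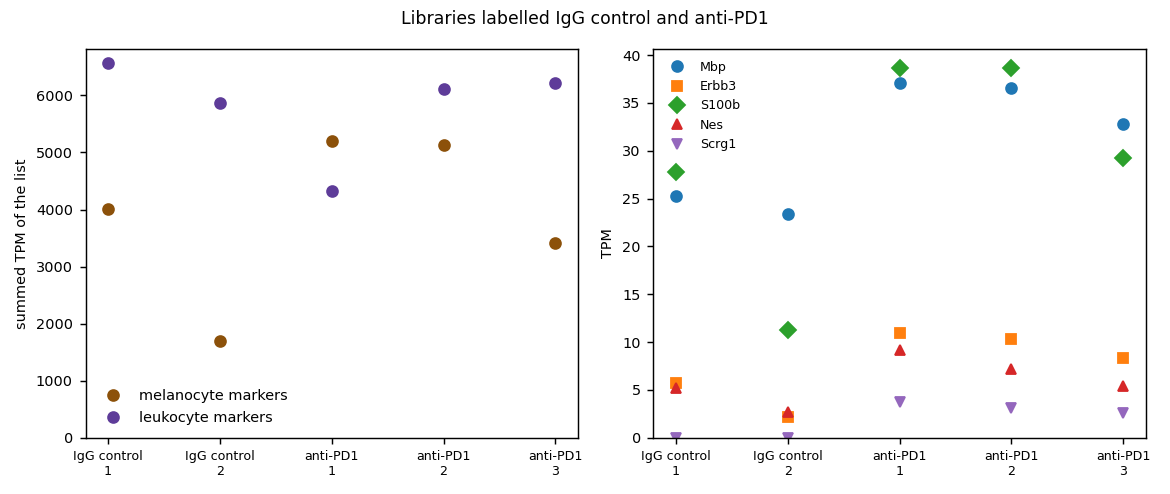
The 5 libraries labelled IgG control and anti-PD1. The left panel gives the summed TPM of pigment cell and leukocyte markers and the right panel the TPM of 5 genes, with axes that start at 0. Mbp, Erbb3, S100b, Nes and Scrg1 are higher in all 3 anti-PD1 libraries than in both IgG libraries, and the second IgG library has the lowest pigment marker sum.

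Ordered by mean level over the 3 groups of a sample type, which pools the guides, S100b and Mbp were the highest in both tumor sample types and the order changed in culture. In sorted cells the means were 102.5 ± 10.7 TPM for S100b (SD, n = 6), 75.9 ± 31.1 for Mbp, 21.2 ± 3.03 for Nes and 13.1 ± 2.24 for Erbb3, followed by Pmp22 (4.85), Sox9 (4.60), Scrg1 (4.22), L1cam (3.75) and Ngfr (0.113). The 4 genes from Pmp22 to L1cam lie within 1 SD of each other. The order differed by group, since Mbp (111.4) was above S100b (94.14) in sorted sg495 cells, and Pmp22 (2.785) was below Scrg1 (5.92), Sox9 (4.365) and L1cam (3.64) in sorted control cells. In culture S100b led at 63.5 ± 7.31 TPM, and Nes (39.6 ± 3.98) and Pmp22 (37.7 ± 6.30) stood next and within their spread, ahead of Erbb3 (21.2), Mbp (13.5) and L1cam (11.5). TPM are scaled for transcript length, so that levels may be set side by side.

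As a description of shared pattern, each gene was correlated with every gene of a mean of at least 1 TPM over the 18 libraries, which share sample types and 3 control pairs, in log2(TPM + 1). The closest genes to Ngfr were Atoh8 (Pearson r = 0.960) and Lims2 (0.957), and to Mbp Col16a1 (0.964) and Mgst2 (0.959). Pmp22 came closest to Prr12 (0.970) and Aimp2 (0.966), Erbb3 to Raly (0.962) and Ptma (0.961), and S100b to Pnrc2 (0.938) and Cox7a2l (0.934). For Sox9 they were Insig2 (0.926) and Lmbr1 (0.925), for Nes Pmm2 (0.958) and Aar2 (0.953), for L1cam Ctr9 (0.932) and Pelp1 (0.911), and for Scrg1 Gstp2 (0.849) and Lmo1 (0.834). No gene of the list was the nearest to another. Among the 9 themselves, Mbp and Pmp22 correlated at r = -0.54, Mbp and Erbb3 at -0.89, Pmp22 and S100b at -0.91 and Ngfr and Nes at 0.85, values that follow the sample types.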

How the data were processed

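Tumor, sorted and cultured B16F10 RNA was selected by poly(A) and sequenced from 1 end after strand-specific library construction. According to the submitters' processing notes and the study's methods, the authors trimmed reads with Cutadapt 2.3, used STAR 2.7.0d to align them to mm10, and estimated gene levels against Ensembl annotation with RSEM 1.3.1. The authors deposited TPM for 47643 genes in 23 libraries, and 0 columns could not be matched to a sample. The study's own test, DESeq2 on estimated counts, was not repeated, because counts were not used here. Depth is unknown from TPM; 11925 to 13899 genes per library of the 18 had at least 1 TPM.

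Log2(TPM + 1) entered limma 3.58.1 under R 4.3.3, using lmFit and eBayes with an expression trend. Genes averaging under 1 TPM over the libraries of a fit were left out. A pseudocount of 1 understates the change of low genes. Each guide was compared with control in the 6 libraries of its sample type with 3 group means. Sample types were compared over 18 libraries and 9 group means, each type taken as the mean of its 3 groups, and anti-PD1 with IgG in 5 libraries. Tests were 2-sided, with Benjamini-Hochberg adjustment over all genes of a fit. A call needs an adjusted p below 0.05 and a change of at least 1.5-fold. The fit was tested on simulated data. All 9 genes, their lists and their marker lists were chosen with earlier results of these data known.

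Named among the other genes were the called ones, at most 3 in each direction of a comparison by size, the highest gene of each list, all genes of the list of 4, and for each of the 9 genes the 2 most correlated ones; any other is said to be named after its values were seen. Some marker genes of the lists are not reported here. Gene positions came from GENCODE M21 (GRCm38). Alternatives were a pseudocount of 0.1, no filter or a mean of 5 TPM, median-of-ratios scaling, no trend, a replicate block, all 18 libraries or control libraries only, and leaving out each library. Figures were drawn with matplotlib 3.10.9 in Python 3.11.15.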

Additional observations from a re-analysis of the deposited data

Results flagged for a closer look

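Of the 9 genes and the other list genes named above, 9 lay wholly above control with a guide in 1 sample type and wholly below it with the same guide in another. None of these differences between sample types was tested. In a single comparison, both guide libraries lay outside both controls for 40.3% to 56.4% of all genes. The share of all genes on opposite sides in 2 sample types was not computed, so nothing is read from the count.

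Ngfr with sg492 averaged 0.15 TPM in sorted cells (control 0.065) and 0.835 in culture (control 1.05). Axl with sg492 averaged 19.875 TPM in bulk tumors (control 11.67) and 2.9 in culture (control 4.48). Loxl2 averaged 16.315 TPM with sg492 and 19.655 with sg495 in bulk tumors (control 13.59), and 9.06 and 3.28 in culture (control 12.1). Nrp1 averaged 16.265 TPM with sg492 and 17.035 with sg495 in bulk tumors (control 14.27), 5.5 with sg495 in sorted cells (control 7.965), and 16.02 and 10.86 in culture (control 17.0). Fabp7 with sg492 averaged 21.795 TPM in bulk tumors (control 26.02) and 25.765 in culture (control 19.715). Maged1 with sg495 averaged 230.26 TPM in bulk tumors (control 216.875) and 196.805 in culture (control 260.205). Errfi1 with sg495 averaged 31.795 TPM in sorted cells (control 25.93) and 8.635 in culture (control 10.77). Prx with sg495 averaged 0.785 TPM in bulk tumors (control 0.595), 0.7 in sorted cells (control 0.745) and 1.355 in culture (control 0.875). Des with sg495 averaged 31.535 TPM in bulk tumors (control 27.135) and 11.805 in culture (control 13.595). In the bulk tumors, leukocyte markers summed to 260.93 to 337.30 TPM in control, 381.68 to 459.07 with sg492 and 506.94 to 564.88 with sg495, and fibroblast markers to 372.11 to 465.36, 524.22 to 608.05 and 620.73 to 1046.60. Their part in the bulk values of Axl, Loxl2, Nrp1, Maged1, Prx and Des was not tested.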

How the results depend on the processing

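The depth behind the TPM is unknown, 2 libraries per group limit every guide comparison, and Ngfr could be fitted in culture alone. Of the recomputed counts of called genes, 178 stayed within 1.5 times the count reported and 17 did not. The number of other neural crest and glial genes called with sg495 in bulk tumors (0 as reported) became 1 with no expression trend and 2 with all 18 libraries in 1 fit, and 0 to 1 with 1 library left out (1 without the first control); with sg492 the range was 0 to 1, again 1 without the first control. In sorted cells with sg495 (1 as reported) it was 0 with no filter and 3 with all 18 libraries, and 0 to 1 with 1 library left out. In culture with sg495 (8 as reported) it was 5 at a mean of at least 5 TPM, where fewer genes were tested, and 3 to 7 with 1 library left out. Of the 9 genes, 1 was called between bulk tumors and sorted cells (2 as reported) at a mean of at least 5 TPM and 1 with control libraries only, which hold fewer samples. Where not said, the cause was not tested.

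Differences that were not called changed sign in some fits. Between sorted and cultured cells Scrg1 was 0.11 with control libraries only and -0.22 to 0.0925 with 1 library left out. Between bulk tumors and sorted cells, with control libraries only, Mbp was 0.16, Erbb3 -0.0152 and Nes -0.0493; Erbb3 was also -0.0213 with median-of-ratios scaling, and L1cam 0.26 without both sorted libraries labelled sg492. With 1 library left out Mbp ran from -0.12 to 0.0356, Erbb3 from -0.0344 to 0.0583, Nes from -0.0442 to 0.15, L1cam from -0.24 to 0.13 and Scrg1 from -0.0717 to 0.24. In anti-PD1 against IgG, scaling to pigment markers gave -0.42 for Mbp, -0.77 for Pmp22, -0.0426 for Nes and -0.35 for L1cam, and Pmp22 ran from -0.19 to 0.58 with 1 library left out.

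Guide and control libraries with the same replicate number did not deviate together within a sample type (correlations of -0.126 to 0.0507 over genes). Libraries of the same number in different sample types were not compared, so a shared mouse or batch was not tested. With the replicate block, 7 of the other genes were called in culture with sg495 in place of 8, and it changed none of the other 10 counts. For sg492 in bulk tumors, where the correlation was -0.126, the crossed pairing called 0 genes, as without a block.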
